A study of Mus musculus with 12 samples.

Results

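Integrins are adhesion receptors, and the 10 genes described here encode integrin subunits that dendritic cells (DC) are known to carry: the alpha subunits Itgae (αE, CD103), Itgam (αM, CD11b), Itgax (αX, CD11c), Itgal (αL, CD11a), Itga4 (α4) and Itgav (αv), and the beta subunits Itgb7 (β7), Itgb2 (β2, CD18), Itgb1 (β1) and Itgb5 (β5). They were chosen by name and make up 10 of the 18193 genes with a probe set whose platform annotation gives 1 symbol. For each gene the probe set with the highest mean over 12 arrays was used. In all, 28 probe sets carried 1 of the 10 symbols, and 27 of them passed the filter on signal, the exception being a probe set of Itgb1. The other 17 that passed served as a check, for the 6 genes with several probe sets. All 10 genes passed the filter and are among the 10929 genes tested, with 8 of them above the array median on all 12 arrays, Itgae on 11 and Itgam on the 9 CD11bhi arrays.

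An integrin is a pair of 1 alpha and 1 beta subunit, and neither reaches the cell surface without a partner, so the pairs a cell can make depend on which subunits it expresses. αE pairs with β7 and binds E-cadherin on epithelial cells, while α4 pairs with β7 or β1 and binds MAdCAM-1 or VCAM-1 on endothelium. β2 pairs with αL, αM and αX to form the leukocyte integrins LFA-1, Mac-1 and complement receptor 4. αv pairs with β5, among others, and αvβ5 binds vitronectin and takes part in the uptake of dying cells.

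RNA came from 4 DC populations sorted from the lungs of male C57BL/6 mice (C57BL/6J in the labels), 8 to 12 weeks old, 16 h after 100 ng of lipopolysaccharide, a bacterial product that drives inflammation, and 100 ug of the foreign protein ovalbumin had been put into the airway in 50 ul. Of the conventional DC (cDC), one population was CD103+ (CD103+ cDC) and the other CD11bhi CD14lo (CD14lo cDC). Of the monocyte-derived DC (moDC), one was CD11bhi CD14hi (CD14hi moDC) and the other CD11bhi Ly6Chi (labelled inf.moDCs, here Ly6Chi moDC). Each was measured on 3 arrays. All of them saw the same treatment, so none is a baseline, and each biological replicate pooled 20 mice. Sort purity was above 93% in the labels. CD103 and CD11b were part of the sort. Signals of Itgae in CD103+ cDC, and of Itgam in CD103+ cDC against the CD11bhi populations, therefore follow from the gates and are given below without a test. CD11c is widely used to gate DC, but the labels name no such gate.

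Values are MAS5 signals, linear intensities in arbitrary units, given for each array or as mean ± SD (n = 3). Each log2 difference comes with its SE from 1 limma fit of all 12 arrays, on signals raised by a pseudocount of 50.0, so that folds of dim genes are understated. A gene was called when its Benjamini-Hochberg adjusted p over the 10929 genes tested was under 0.05. Signals of different genes are not compared, since each probe set has its own response. In sorted bulk RNA, fewer cells that carry a message and less message per cell cannot be told apart.

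Array medians were 72.4 to 109, and arrays of 1 population correlated across genes at 0.973 to 0.983. Of the CD103+ DC markers on the array (7 of 8 listed), the summed signal was 49263 to 51488 on CD103+ cDC arrays, 12139 to 15363 on CD14lo cDC, 11765 to 12384 on CD14hi moDC and 8637 to 9583 on Ly6Chi moDC arrays. Conventional DC markers (7 of 7) summed to 65006 to 81810, 48172 to 55498, 41467 to 69289 and 33620 to 42351 in this order. The CD14hi moDC thus overlapped both cDC populations. For CD11b+ DC markers (6 of 7) the sums were 20591 to 29549, 37028 to 45104, 32164 to 46909 and 13143 to 15507, with CD14hi moDC overlapping CD14lo cDC. Monocyte and macrophage markers (8 of 10 on the array) summed to 6214 to 7169, 23497 to 26450.0, 58331 to 69601 and 61931 to 66377 in the same order of populations. That list names Cd14 and Ly6c2, and CD14 and Ly6C were part of the sort, so these sums are not independent of the gates. The ratio of 3' to 5' Gapdh control signal, a measure of RNA integrity, was 2.74 ± 0.91 in CD103+ cDC, where replicates 1 and 3 stood at 3.26 and 3.27 and replicate 2 at 1.68, and 1.66 to 1.85 on average in the other populations (SD, n = 3). Its part in the differences of CD103+ cDC was not tested. With replicates 1 and 3 of CD103+ cDC left out, 1 array stood for that population and was assumed to vary like the others, whose arrays then gave the spread. Under that assumption Itga4 lost its call between CD103+ cDC and CD14lo cDC, and the number of integrin genes called was otherwise the same, which is no check of the spread within CD103+ cDC.

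**Figure D1:**
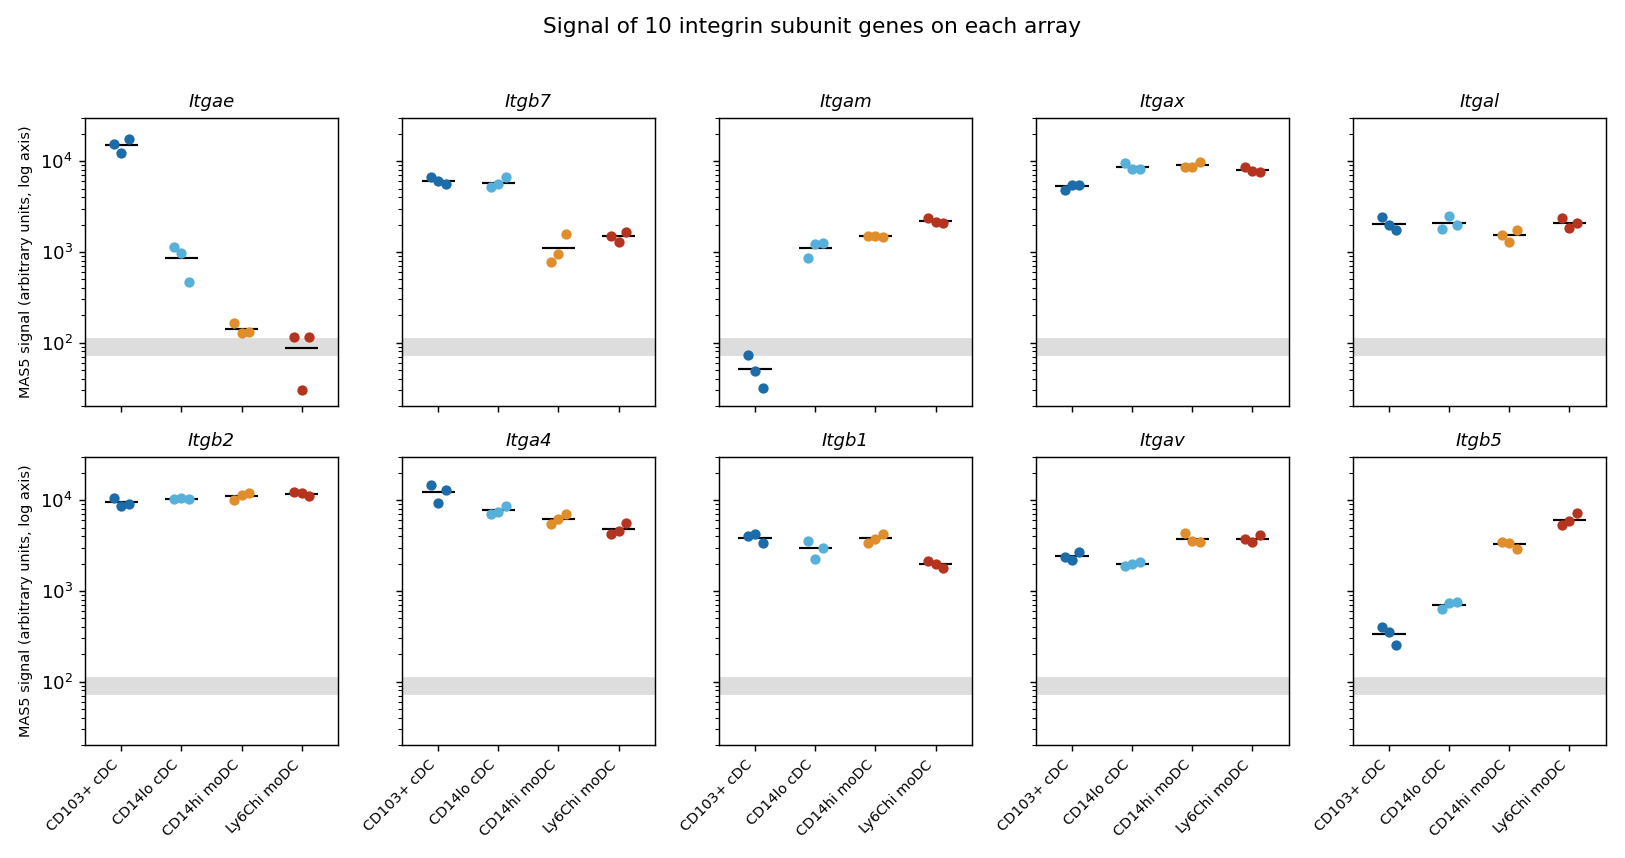
MAS5 signal (log axis, arbitrary units) of the 10 integrin subunit genes on each of 12 arrays, by population, with a bar at each mean. Itgb7 was high on all 6 cDC arrays, Itgb5 on all 6 moDC arrays, and Itgb2 differed little among populations.

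Itgae and Itgb7, the subunits of αEβ7, divided the populations at different places: Itgb7 message was abundant on arrays of both cDC populations, which did not differ past the threshold, whereas Itgae was far brighter on those of CD103+ cDC. The signal of Itgae was 15467, 12449 and 17619.6 on the CD103+ cDC arrays, the population chosen by its protein, and 1126, 974 and 466 in CD14lo cDC. In CD14hi moDC it was 162, 127 and 131, and in Ly6Chi moDC 114, 29.8 and 116. Every CD14lo cDC array thus lay above every moDC array, although none of these populations was labelled CD103+. The labels name no CD103 gate for them, and Itgae was 4.50-fold higher in CD14lo cDC than in CD14hi moDC (log2 difference 2.17 ± 0.29, adjusted p = 2.6e-05) and 6.59-fold higher than in Ly6Chi moDC (log2 difference 2.72 ± 0.29, adjusted p = 8.3e-07). The CD14hi moDC arrays lay above the Ly6Chi moDC arrays, but not past the threshold (log2 difference 0.55 ± 0.29, adjusted p = 0.22). A second probe set of Itgae gave 1.12 and 1.59 for the comparisons of CD14lo cDC with CD14hi moDC and with Ly6Chi moDC, both called. Its means of 53.2 in CD14hi moDC and 24.6 in Ly6Chi moDC lay below the array medians.

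Markers of CD103+ cDC moved with this difference in part. Mean Itgae in CD14lo cDC was 5.63% of that in CD103+ cDC, and the chemokine receptor gene Xcr1 stood at 3.57% of its CD103+ cDC level, against 1.25% in CD14hi moDC and 0.638% in Ly6Chi moDC. Signals of Xcr1 averaged 94.8, 33.2 and 16.9 in these populations, near or below the array medians of 72.4 to 109, so its order lies at the floor. Wdfy4 and the transcription factor gene Batf3 had the same order, with CD14lo cDC at 46.6%, CD14hi moDC at 17.9% and Ly6Chi moDC at 16.5% of the CD103+ cDC level for Wdfy4 and, listed likewise, 82.4%, 71.8% and 36.3% for Batf3. The adhesion gene Cadm1 (6.87%, 75.3% and 1.29%) and Tlr3, the receptor of double-stranded RNA (11.3%, 12.4% and 9.43%), were highest of the 3 in CD14hi moDC and lowest in Ly6Chi moDC. Irf8, a transcription factor gene of these cells (19.4%, 17.6% and 22.3%), and Naaa (35.1%, 28.3% and 37.3%) were highest of the 3 in Ly6Chi moDC. T cells also carry αEβ7. Of 12 T cell markers, 8 were on the array and 2 passed the filter, Cd247 and Bcl11b, while the subunits of the T cell receptor complex Cd3d, Cd3e and Cd3g did not, and the summed signal was 1091 to 1536 in CD14lo cDC, 1299 to 1442 in CD14hi moDC and 1109.9 to 1144 in Ly6Chi moDC. Among NK cell markers, 8 of 9 were on the array and 4 passed, with sums of 7366 to 8462 in CD14lo cDC, 1938 to 2463 in CD14hi moDC and 1495 to 1860.0 in Ly6Chi moDC; most of the CD14lo cDC sum was Klrd1, a receptor subunit gene, at 6418, and Ncr1, Nkg7 and Eomes did not pass. The part of such cells in the Itgae signal was not tested.

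Itgb7, the beta partner of αE and α4, gave 6725, 6054 and 5553 in CD103+ cDC and 5205, 5603 and 6641 in CD14lo cDC. Its signal was 767, 959 and 1594 in CD14hi moDC and 1498, 1281 and 1669.5 in Ly6Chi moDC. All 6 cDC arrays lay above all 6 moDC arrays. Taking both populations of each lineage together, Itgb7 was 4.61-fold higher in the cDC (log2 difference 2.20 ± 0.14, adjusted p = 3.7e-10), and this was among 8 of the 10 genes called between the lineages, where 41.5% of all genes were called. CD103+ cDC and CD14lo cDC were not told apart (log2 difference 0.074 ± 0.20, adjusted p = 0.82), even though only the first were sorted for αE. CD14lo cDC exceeded CD14hi moDC by 5.27-fold (log2 difference 2.40 ± 0.20, adjusted p = 8.9e-08) and Ly6Chi moDC by 3.83-fold (log2 difference 1.94 ± 0.20, adjusted p = 5.4e-07). Between the moDC the value was -0.46 ± 0.20 on the log2 scale (adjusted p = 0.12); without CD14hi moDC replicate 3, the brightest of its population, it was -0.75 (adjusted p = 0.0045), and under median centring -0.68 (0.034).

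The promoters of Itgb7, Itgam, Itgav and Itgb5 are shown as windows of 250 bases before and 50 after the start, as examples of a gene higher in the cDC (Itgb7), the pair higher in the moDC (Itgav and Itgb5) and a gene that follows the CD11b gate (Itgam); RefSeq's table (GRCm38.p6) held 7 of the 10 genes, these 4 among them. Capitals mark GAGGAA, the core bound by the myeloid ETS factor PU.1, and GGGCGG, the GC box bound by Sp1, each read on either strand and printed as it stands in the window.
Itgb7: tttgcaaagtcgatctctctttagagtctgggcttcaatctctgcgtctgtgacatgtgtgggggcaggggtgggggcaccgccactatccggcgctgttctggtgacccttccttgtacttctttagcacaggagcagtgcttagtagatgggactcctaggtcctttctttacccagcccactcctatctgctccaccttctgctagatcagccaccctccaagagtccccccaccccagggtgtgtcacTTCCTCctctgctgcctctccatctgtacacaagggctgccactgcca
Itgam: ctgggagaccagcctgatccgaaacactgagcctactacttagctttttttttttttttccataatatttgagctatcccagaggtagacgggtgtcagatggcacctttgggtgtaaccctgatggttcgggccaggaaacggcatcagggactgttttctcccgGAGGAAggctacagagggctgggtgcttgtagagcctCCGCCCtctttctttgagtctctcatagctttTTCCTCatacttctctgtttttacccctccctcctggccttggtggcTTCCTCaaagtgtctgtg
Itgav: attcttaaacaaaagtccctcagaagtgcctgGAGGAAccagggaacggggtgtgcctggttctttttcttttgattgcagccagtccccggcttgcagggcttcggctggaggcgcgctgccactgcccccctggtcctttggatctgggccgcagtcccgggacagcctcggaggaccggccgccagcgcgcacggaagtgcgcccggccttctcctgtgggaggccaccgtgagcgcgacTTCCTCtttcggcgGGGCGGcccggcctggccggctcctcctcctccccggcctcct
Itgb5: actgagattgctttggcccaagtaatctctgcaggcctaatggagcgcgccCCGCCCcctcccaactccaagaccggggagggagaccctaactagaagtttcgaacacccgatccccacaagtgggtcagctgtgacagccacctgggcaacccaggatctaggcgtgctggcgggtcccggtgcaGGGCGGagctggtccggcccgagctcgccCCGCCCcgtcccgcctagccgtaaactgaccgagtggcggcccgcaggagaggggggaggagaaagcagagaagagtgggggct
They lie at chr15:102231886-102232185, minus strand for Itgb7, chr7:128062390-128062689, plus strand for Itgam, chr2:83724147-83724446, plus strand for Itgav and chr16:33829415-33829714, plus strand for Itgb5. The Itgb7 window held 1 GAGGAA and 0 GGGCGG, and that of Itgam 3 and 1. In the Itgav window there were 2 and 1, and in the Itgb5 window 0 and 3. No matches overlapped, and TGTGGT, the core bound by RUNX factors, was in none of the 4. GAGGAA was in 28.3% of all 32851 windows of this length, with 3 or more copies in 0.685%, and GGGCGG in 35.7%, with 3 or more in 10.7%. TGTGGT was in 16.8% of windows, including those of Itga4 and Itgax. The G and C content was 56.3% for Itgb7, 50.3% for Itgam, 67.3% for Itgav and 65.7% for Itgb5, against a median of 52.7% over all windows. These matches describe letters and say nothing of binding.

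Among the leukocyte integrins, αM differed among the CD11bhi populations, αX was lowest in CD103+ cDC, and αL and their common partner β2 varied little. Itgam, whose protein chose the CD11bhi populations, was 72.1, 48.9 and 31.2 in CD103+ cDC, below the array median on all 3 arrays. It was 859, 1231 and 1254 in CD14lo cDC, 1479.5, 1493 and 1470.1 in CD14hi moDC and 2390.1, 2113 and 2062 in Ly6Chi moDC. These 3 populations did not overlap, although all were sorted as CD11bhi. Within them Itgam was 1.94-fold lower in CD14lo cDC than in Ly6Chi moDC (log2 difference -0.96 ± 0.18, adjusted p = 0.00054). CD14lo cDC and CD14hi moDC did not differ past the threshold (log2 difference -0.41 ± 0.18, adjusted p = 0.15). Itgam was 1.46-fold lower in CD14hi moDC than in Ly6Chi moDC (log2 difference -0.55 ± 0.18, adjusted p = 0.043), a call that each removal of an array from these 2 populations ended, that of CD14hi moDC replicate 1, 2 or 3 at adjusted p = 0.10, 0.10 and 0.10 and that of Ly6Chi moDC replicate 1, 2 or 3 at 0.15, 0.083 and 0.078. Quantile normalization (0.080), a smaller pseudocount (0.098), no filter (0.065) and no intensity trend (0.051) ended it too.

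Itgax encodes αX, which with β2 forms complement receptor 4, and on chromosome 7 its gene follows Itgam, with Itgad, a related alpha subunit gene, after it. Itgax gave 4809, 5531 and 5458 in CD103+ cDC and 9558, 8119.8 and 8243 in CD14lo cDC. In CD14hi moDC the signal was 8724, 8570.3 and 9791, and in Ly6Chi moDC 8641, 7735 and 7591. All 3 CD103+ cDC arrays were below the 9 others. Itgax was 1.63-fold lower in CD103+ cDC than in CD14lo cDC (log2 difference -0.71 ± 0.12, adjusted p = 0.00016), 1.71-fold lower than in CD14hi moDC (log2 difference -0.77 ± 0.12, adjusted p = 4.0e-05) and 1.51-fold lower than in Ly6Chi moDC (log2 difference -0.60 ± 0.12, adjusted p = 0.00037). The 3 CD11bhi populations were not told apart by Itgax (adjusted p = 0.78, 0.57 and 0.35), and its lineage difference of -0.33 ± 0.083 on the log2 scale (adjusted p = 0.0036) came with cDC and moDC arrays that overlapped. Itgax and Itgam, neighbours in the genome, thus had their lowest signal in the same population, which for Itgam the gate fixed.

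Itgal encodes αL, the alpha subunit of LFA-1, which binds ICAM-1 on other cells. It averaged 2039 ± 339 for CD103+ cDC, 2097 ± 364 for CD14lo cDC, 1526 ± 236 for CD14hi moDC and 2105 ± 262 for Ly6Chi moDC. No pair of populations and no lineage difference passed the test for Itgal (smallest adjusted p = 0.066), nor did the F test over all populations (adjusted p = 0.074). The lowest mean was that of CD14hi moDC: CD103+ cDC exceeded it by 0.41 on the log2 scale (adjusted p = 0.066), which passed the test without CD103+ cDC replicate 3 or without CD14hi moDC replicate 3 (0.51 and 0.51, adjusted p = 0.042 in both), under median centring (0.043) and with probe sets averaged per gene (0.046). CD14hi moDC against Ly6Chi moDC passed under median centring (0.014) and when these 2 populations were fitted alone (0.043).

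Itgb2, the shared beta subunit of LFA-1, Mac-1 and complement receptor 4, averaged 9452 ± 1019 for CD103+ cDC, 10374 ± 117 for CD14lo cDC, 11199 ± 920.4 for CD14hi moDC and 11718 ± 605 for Ly6Chi moDC. The means stepped up in this order, by 0.31 on the log2 scale from lowest to highest, and no neighbours in it differed past the threshold; under quantile normalization CD103+ cDC fell below CD14lo cDC (-0.37 against -0.14, adjusted p = 0.0024 against 0.40) and below CD14hi moDC (-0.33, adjusted p = 0.0043). The CD103+ cDC and CD14hi moDC were also told apart without CD103+ cDC replicate 1 (-0.33, adjusted p = 0.041). Itgb2 was 1.16-fold lower in the cDC (log2 difference -0.21 ± 0.080, adjusted p = 0.043) and 1.24-fold lower in CD103+ cDC than in Ly6Chi moDC (log2 difference -0.31 ± 0.11, adjusted p = 0.029). The F test over all populations did not pass (adjusted p = 0.11). Both calls were lost with no filter on signal (adjusted p = 0.082 and 0.059) and with no intensity trend (0.10 and 0.078), that between lineages also under median centring (0.096) and that between CD103+ cDC and Ly6Chi moDC when these 2 populations were fitted alone (0.060). Leaving out 1 array ended the lineage call for 9 arrays, namely CD103+ cDC replicates 2 and 3, CD14lo cDC replicates 1, 2 and 3, CD14hi moDC replicates 2 and 3 and Ly6Chi moDC replicates 1 and 2 (adjusted p over all 12 removals 0.018 to 0.098). It ended that between CD103+ cDC and Ly6Chi moDC for CD103+ cDC replicates 2 and 3 and Ly6Chi moDC replicates 1 and 2 (0.012 to 0.098).

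Of the subunits that bind VCAM-1 and MAdCAM-1, Itga4 was highest in CD103+ cDC and lowest in Ly6Chi moDC, and Itgb1 was lowest in Ly6Chi moDC. Itga4 gave 14611, 9309.9 and 12834 in CD103+ cDC and 7112, 7346 and 8712 in CD14lo cDC. Signals of 5487, 6199.8 and 7014 in CD14hi moDC and 4221, 4548 and 5596 in Ly6Chi moDC followed. The 3 CD103+ cDC arrays were the highest of the 12, those of CD14lo cDC lay just above those of CD14hi moDC, and the arrays of the 2 moDC populations overlapped. Between the lineages, Itga4 was 1.77-fold higher in the cDC (log2 difference 0.82 ± 0.11, adjusted p = 1.1e-05). CD103+ cDC exceeded CD14lo cDC by 1.56-fold (log2 difference 0.64 ± 0.16, adjusted p = 0.0054), CD14hi moDC by 1.93-fold (log2 difference 0.95 ± 0.16, adjusted p = 0.00012) and Ly6Chi moDC by 2.52-fold (log2 difference 1.33 ± 0.16, adjusted p = 1.6e-06). With CD103+ cDC replicates 1 and 3 left out, the array that remained gave 0.27 against CD14lo cDC (adjusted p = 0.40). CD14lo cDC exceeded Ly6Chi moDC (log2 difference 0.69 ± 0.16, adjusted p = 0.0034), while the neighbours CD14lo cDC and CD14hi moDC (log2 difference 0.31 ± 0.16, adjusted p = 0.24) and CD14hi moDC and Ly6Chi moDC (log2 difference 0.38 ± 0.16, adjusted p = 0.12) were not told apart by this probe set. With probe sets averaged per gene both passed (log2 difference 0.43, adjusted p = 0.028, and 0.51, adjusted p = 0.0094), as did 1 of 4 other probe sets between CD14lo cDC and CD14hi moDC and 2 of 4 between the moDC, where quantile normalization gave a call too (adjusted p = 0.032). All 4 other probe sets of Itga4 were called in the same direction between the lineages (from 0.84 to 1.35) and for CD103+ cDC against each other population.

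Itgb1, which pairs with α4 and with many other alpha subunits, gave 4025, 4187 and 3398 in CD103+ cDC and 3585, 2238 and 2991 in CD14lo cDC. It gave 3348, 3759 and 4259 in CD14hi moDC and 2144, 1976 and 1772 in Ly6Chi moDC. Ly6Chi moDC held the 3 lowest arrays. Itgb1 was 1.94-fold higher in CD103+ cDC than in Ly6Chi moDC (log2 difference 0.96 ± 0.16, adjusted p = 7.9e-05), 1.46-fold higher in CD14lo cDC (log2 difference 0.55 ± 0.16, adjusted p = 0.018) and 1.90-fold higher in CD14hi moDC (log2 difference 0.93 ± 0.16, adjusted p = 0.00042). The probe sets of Itgb1 did not agree on all of these: among 4 others, 3 were called the same way for CD103+ cDC, 0 for CD14lo cDC and 1 for CD14hi moDC, where another gave -0.12. The probe set that gave -0.12 was dim, with population means of 67.3 to 104, near the array medians. The brightest of the 4, with means of 1639 to 2856, kept the direction throughout and was called for CD103+ cDC and CD14hi moDC. The call of CD14lo cDC over Ly6Chi moDC was also lost under median centring (adjusted p = 0.094), with the mean of the probe sets (0.061) and without CD14lo cDC replicate 1 (0.11), CD14lo cDC replicate 3 (0.059) or Ly6Chi moDC replicate 3 (0.077). The lineage difference of 0.29 ± 0.11 just missed the threshold (adjusted p = 0.051) and passed it without CD103+ cDC replicate 3 (adjusted p = 0.035), CD14lo cDC replicate 2 (0.0082) or CD14hi moDC replicate 3 (0.038), with a stricter filter on signal (0.049), with probe sets averaged per gene (0.045) and by 1 of 4 other probe sets. That probe set was dim too, with population means of 59.2 to 122. CD14lo cDC replicate 1 was the brightest of its population, and without it Itgb1 differed between CD103+ cDC and CD14lo cDC by 0.57 (adjusted p = 0.020, against 0.41 and 0.067 with all arrays) and between CD14lo cDC and CD14hi moDC by -0.53 (adjusted p = 0.041, against -0.38 and 0.14).

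Both subunits of αvβ5 were higher in the monocyte-derived populations, β5 by far the more. Itgav gave 2341, 2179.5 and 2676 in CD103+ cDC and 1882, 1969 and 2068 in CD14lo cDC. Its signal was 4354, 3524 and 3436 in CD14hi moDC and 3688, 3496 and 4140.2 in Ly6Chi moDC. Every moDC array lay above every cDC array. Itgav was 1.71-fold lower in the cDC (log2 difference -0.78 ± 0.10, adjusted p = 2.5e-06). It was 1.88-fold lower in CD14lo cDC than in CD14hi moDC (log2 difference -0.91 ± 0.14, adjusted p = 8.5e-05) and 1.89-fold lower than in Ly6Chi moDC (log2 difference -0.92 ± 0.14, adjusted p = 4.2e-05). CD103+ cDC were 1.56-fold lower than CD14hi moDC (log2 difference -0.64 ± 0.14, adjusted p = 0.0010) and 1.56-fold lower than Ly6Chi moDC (log2 difference -0.64 ± 0.14, adjusted p = 0.00065). Neither the cDC (log2 difference 0.27 ± 0.14, adjusted p = 0.15) nor the moDC (log2 difference -0.0058 ± 0.14, adjusted p = 0.98) differed among themselves past the threshold. Of 4 other probe sets of Itgav, all had the same sign and 2 were called between the lineages, while for CD103+ cDC against Ly6Chi moDC 2 were called and another gave 0.14.

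Itgb5 gave 401, 349 and 254 in CD103+ cDC and 630.3, 742 and 749 in CD14lo cDC. In CD14hi moDC it gave 3501, 3397 and 2922, and in Ly6Chi moDC 5319.8, 5825 and 7162. The 4 populations formed 4 separate steps, with no array of one inside the range of another. Itgb5 was 8.40-fold lower in the cDC than in the moDC (log2 difference -3.07 ± 0.12, adjusted p = 1.2e-12). Each step between neighbours passed the test: Itgb5 was 1.99-fold lower in CD103+ cDC than in CD14lo cDC (log2 difference -0.99 ± 0.17, adjusted p = 0.00017), 4.39-fold lower in CD14lo cDC than in CD14hi moDC (log2 difference -2.13 ± 0.17, adjusted p = 4.7e-08) and 1.84-fold lower in CD14hi moDC than in Ly6Chi moDC (log2 difference -0.88 ± 0.17, adjusted p = 0.00085). From one end to the other, CD103+ cDC were 16.1-fold lower than Ly6Chi moDC (log2 difference -4.01 ± 0.17, adjusted p = 1.0e-12). All 3 other probe sets of Itgb5 were called in the same direction between the lineages, from -3.16 to -2.94, and 2 of 3 between CD14hi moDC and Ly6Chi moDC.

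**Figure D2:**
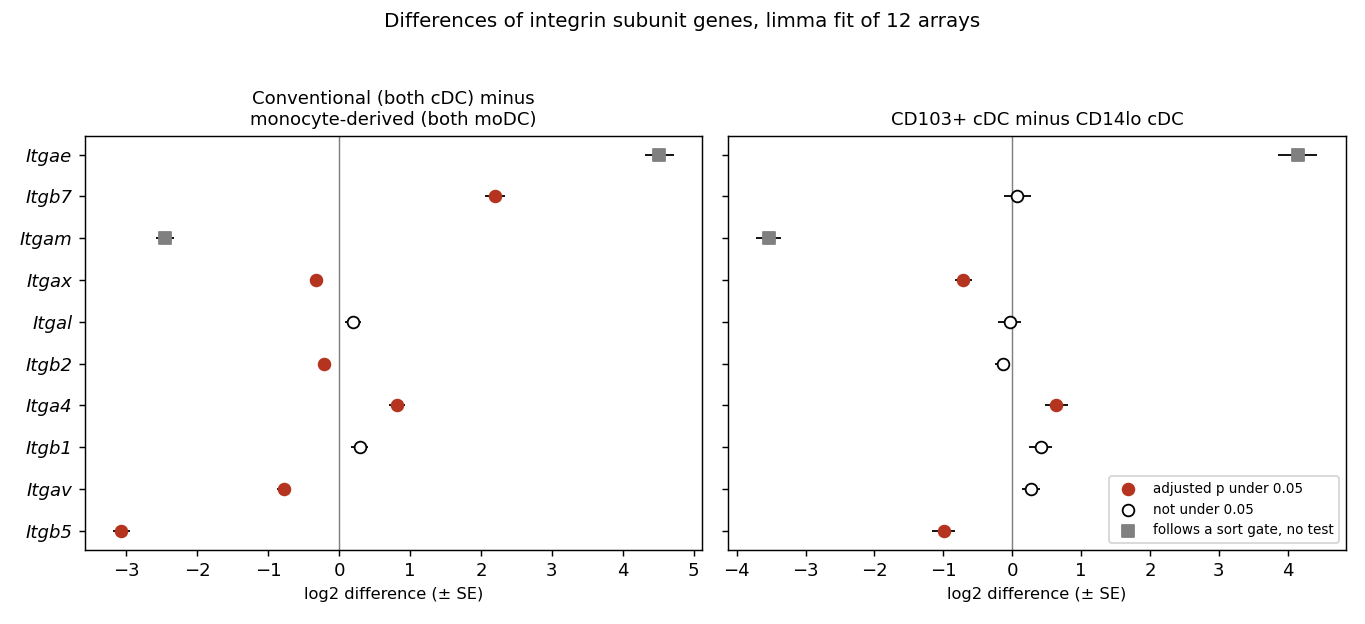
Log2 difference ± SE (limma, 12 arrays) of the 10 genes, for both cDC minus both moDC populations (left) and CD103+ cDC minus CD14lo cDC (right), with filled circles for genes past the threshold and grey squares for the 2 genes that follow a sort gate. Itgb7 lay at 2.20 and Itgb5 at -3.07 on the left, and Itgb7 near 0 on the right.

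**Figure D3:**
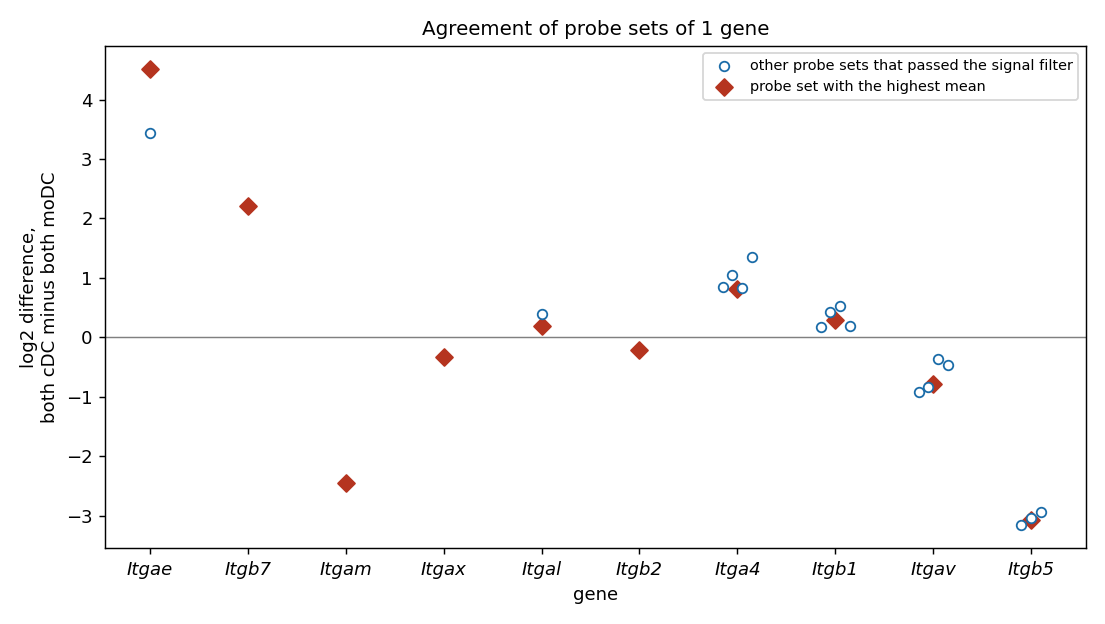
Log2 difference of both cDC minus both moDC populations for each probe set that passed the filter, with a diamond for the probe set of the highest mean and open circles for the others of the same gene. Probe sets of a gene lay on the same side of 0 for all 6 genes that have several, and those of Itgb5 spanned -3.16 to -2.94 besides the diamond.

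Counted over the comparisons, the share of integrin subunit genes called was above that of all genes in each, but Itgae and Itgam follow the gates and the genes were picked with earlier results known, so these shares are a description. Between the lineages the cDC had 3 of them higher and 5 lower, among them Itgae and Itgam, beside the 41.5% of all genes that were called. In CD103+ cDC against CD14lo cDC, 2 were higher and 3 lower (28.7% of all genes called). Against CD14hi moDC, 3 were higher and 4 lower in CD103+ cDC (37.2%), and against Ly6Chi moDC 4 were higher and 5 lower (47.5%). These counts too hold Itgae and Itgam. In CD14lo cDC, 2 were higher and 2 lower than in CD14hi moDC (16.2% of all genes), and 4 were higher and 3 lower than in Ly6Chi moDC (25.2%). In CD14hi moDC 1 was higher, Itgb1, and 2 were lower, Itgam and Itgb5, than in Ly6Chi moDC, where 18.2% of all genes were called (1248 higher and 745 lower). With arrays centred on their medians it was 1 and 4, with Itgb7 and Itgal added, beside 832 higher and 1852 lower among all 10929 genes. That centring moved the median log2 difference of all genes from 0.0090 to -0.21. Under quantile normalization it was 2 and 1, beside 1092 higher and 814 lower among all genes. The moderated F test over all 4 populations called 8 of the 10, all but Itgal and Itgb2, and 51.1% of all genes. The distance between the lowest and the highest population mean had a median of 1.15 on the log2 scale over the 10 genes and 0.62 over all genes. Both the F test count and this median hold Itgae and Itgam, whose distances of 6.86 and 4.49 follow the gates. Itgae had the largest such distance of all 10929 genes, which its gate fixed, Itgb5 ranked 186 and Itgb7 676, whereas Itgb2 ranked 9018.

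For the members that varied by at least 1 on the log2 scale, the tested genes with the most similar profile were found by the root mean square difference over the 4 population means, each gene centred on its own mean. The smallest values were found for Itga4: Prrc2b (0.030), Usp53 (0.038) and Gpr137b-ps (0.039) on the log2 scale. Nearest to Itgb7 was Kmo, a tryptophan pathway enzyme gene, at 0.15, with means of 2664 and 3224 in CD103+ and CD14lo cDC and of 548 and 636 in CD14hi and Ly6Chi moDC, followed by Cyfip2 (0.31) and Adgra2 (0.31). Itgb5 was followed most closely by Sema4b (0.084), Dmxl2 (0.12) and Pdpn (0.17), and Itgam by Ckap4 (0.084), Pilrb1 (0.14) and Capg (0.14). For Itgae the nearest genes, Septin3 (0.40), Xcr1 (0.74) and Cldn1 (0.78), lay farther away. With 4 means per gene and 10929 genes, such likeness is a description.

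Outside the 10 genes, 17 other integrin subunits were listed, 15 were on the array and 9 passed the filter. Between the lineages 4 of the 9 were higher and 3 lower in the cDC, where 41.5% of all genes were called, with a median log2 difference of 0.054 against 0.0011 over all genes. The 4 were Itga1, Itga3 and Itgb8, highest in CD103+ cDC, and Itgb3, highest in CD14lo cDC. None was higher in both cDC than in both moDC past the threshold. CD14lo cDC lay below Ly6Chi moDC for Itga1 (log2 difference -0.82, adjusted p = 0.018) and below CD14hi moDC for Itgb8 (log2 difference -1.48, adjusted p = 0.00042). CD103+ cDC had 4 higher and 4 lower than CD14lo cDC, where 28.7% of all genes were called, with a median of -0.48 against -0.029. This list and those below were drawn up with earlier results of these data known.

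Itga9 (α9), which pairs with β1, averaged 19.9 ± 13.9 for CD103+ cDC, 134 ± 74.7 for CD14lo cDC, 2346 ± 439 for CD14hi moDC and 1536 ± 382 for Ly6Chi moDC. It was 17.5-fold lower in the cDC (log2 difference -4.13 ± 0.18, adjusted p = 4.8e-12). Itga6 (α6), a laminin receptor subunit, averaged 79.6 ± 14.7 for CD103+ cDC, 211 ± 6.55 for CD14lo cDC, 901 ± 85.4 for CD14hi moDC and 1365 ± 330.3 for Ly6Chi moDC, and was 6.26-fold lower in the cDC (log2 difference -2.65 ± 0.13, adjusted p = 1.7e-11). Itga5 (α5), the fibronectin receptor subunit, was lower in the cDC by a smaller measure, with means of 1765 ± 649 for CD103+ cDC, 2745 ± 341 for CD14lo cDC, 3079 ± 194 for CD14hi moDC and 3938 ± 143 for Ly6Chi moDC and a lineage difference of -0.68 (adjusted p = 0.00032) on the log2 scale.

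CD103+ cDC carried 4 further subunits at a higher level than the CD14lo cDC. Itgb8 (β8), which with αv activates latent TGF-beta, averaged 574 ± 195 for CD103+ cDC, 52.0 ± 21.3 for CD14lo cDC, 236 ± 65.9 for CD14hi moDC and 4.51 ± 3.23 for Ly6Chi moDC. It was 6.01-fold higher in CD103+ cDC than in CD14lo cDC (log2 difference 2.59 ± 0.26, adjusted p = 3.9e-07), and all of its Ly6Chi moDC arrays were far below the array median. Itga1 (α1), a collagen receptor subunit, averaged 780.4 ± 104 for CD103+ cDC, 104 ± 24.5 for CD14lo cDC, 87.8 ± 39.7 for CD14hi moDC and 223 ± 61.2 for Ly6Chi moDC and was 5.43-fold higher in CD103+ cDC than in CD14lo cDC (log2 difference 2.44 ± 0.24, adjusted p = 3.9e-07). Itga8 (α8) averaged 426 ± 154 for CD103+ cDC, 64.4 ± 15.02 for CD14lo cDC, 279 ± 24.3 for CD14hi moDC and 119 ± 38.1 for Ly6Chi moDC, and was 4.01-fold higher (log2 difference 2.00 ± 0.25, adjusted p = 7.1e-06).

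Itga3 (α3), another laminin receptor subunit, was highest in CD103+ cDC too, averaging 339 ± 52.4 for CD103+ cDC, 90.2 ± 11.4 for CD14lo cDC, 68.5 ± 19.6 for CD14hi moDC and 54.0 ± 14.99 for Ly6Chi moDC, and was 2.77-fold higher there than in CD14lo cDC (log2 difference 1.47 ± 0.22, adjusted p = 4.5e-05). Outside CD103+ cDC the means of Itga3 lay within or below the array medians. Itga3 passed the filter on signal through CD103+ cDC, so its call is not independent of the filter. Itgb3 (β3), which pairs with αv or with the platelet subunit αIIb, stood out in CD14lo cDC, with means of 36.1 ± 16.3 for CD103+ cDC, 210.4 ± 36.2 for CD14lo cDC, 33.9 ± 4.10 for CD14hi moDC and 48.2 ± 44.5 for Ly6Chi moDC. It was 3.04-fold lower in CD103+ cDC than in CD14lo cDC (log2 difference -1.60 ± 0.29, adjusted p = 0.00034). The other population means lay below the array medians. Itgb3 thus passed the filter on signal through CD14lo cDC alone, and this call is not independent of the filter. Platelets carry this subunit, and of 8 platelet markers on the array 3 passed the filter. The 8 markers, Itgb3 and Itga2b among them, summed to 160.3 to 303 in CD103+ cDC and 366 to 505 in CD14lo cDC. In CD14hi moDC, where Itgb3 averaged 33.9, the sum was 474 to 539, and in Ly6Chi moDC 196 to 319. Gp1bb, Gp9, Gp5 and Gp6, which encode platelet glycoproteins, did not pass, and the part of platelets was not tested. Itga2b (αIIb) was called neither between the lineages nor between the cDC (log2 differences 0.054 and -0.48, adjusted p = 0.89 and 0.34). The 6 listed subunits on the array that did not pass, Itga2, Itga7, Itga10, Itgb4, Itgb6 and Itgbl1, had no population mean above 30.3.

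**Figure D4:**
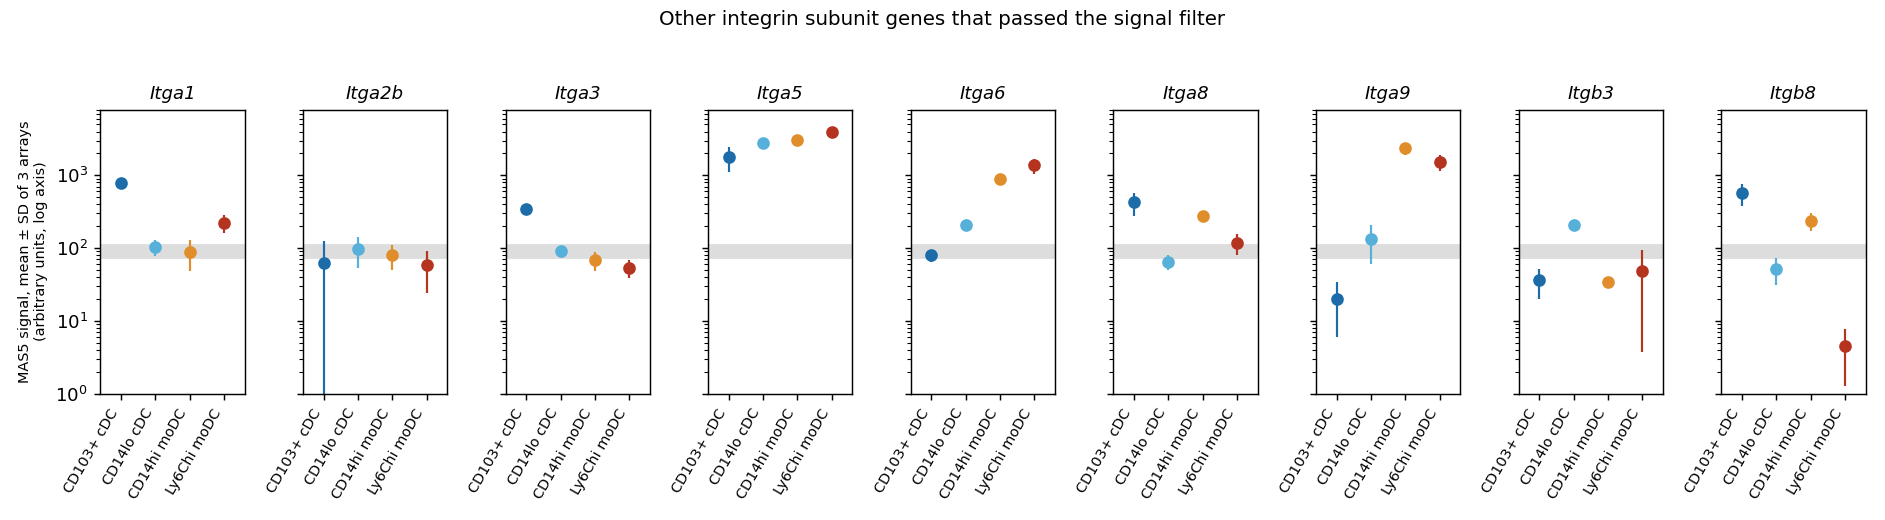
MAS5 signal (mean ± SD of 3 arrays, log axis, arbitrary units) of the 9 other integrin subunit genes that passed the filter, by population, with the range of array medians in grey. Itga9 and Itga6 were high in both moDC populations, and Itga1 and Itgb8 highest in CD103+ cDC.

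Of 29 genes for integrin ligands listed, 26 were on the array and 11 were tested; 2 were higher and 7 lower in the cDC (median -0.80; 41.5% of all genes called), and 2 were higher and 6 lower in CD103+ cDC than in CD14lo cDC (median -0.76; 28.7% of all genes called), where Icam1 lost its call under quantile normalization. Fn1, which encodes fibronectin, averaged 312 ± 299.95 for CD103+ cDC, 2144 ± 447 for CD14lo cDC, 7785 ± 2348 for CD14hi moDC and 15337 ± 1287 for Ly6Chi moDC, and was 14.1-fold lower in the cDC (log2 difference -3.82 ± 0.30, adjusted p = 7.0e-09). Thbs1, thrombospondin 1, averaged 35.1 ± 31.7 for CD103+ cDC, 203 ± 129.998 for CD14lo cDC, 452 ± 338 for CD14hi moDC and 4443 ± 1100.4 for Ly6Chi moDC, and was 10.1-fold lower (log2 difference -3.33 ± 0.32, adjusted p = 8.1e-08). Most of the Thbs1 signal was in the Ly6Chi moDC. Vcam1, the ligand of α4β1, stood out in CD14hi moDC instead, with means of 201 ± 20.2 for CD103+ cDC, 153 ± 45.1 for CD14lo cDC, 1410.3 ± 452 for CD14hi moDC and 226 ± 55.1 for Ly6Chi moDC and a 2.78-fold lower level in the cDC (log2 difference -1.47 ± 0.17, adjusted p = 8.8e-07). Ccn1, an αv ligand, had a like profile at 26.9 ± 16.2 for CD103+ cDC, 38.0 ± 21.3 for CD14lo cDC, 355 ± 61.1 for CD14hi moDC and 47.1 ± 9.81 for Ly6Chi moDC and was 2.44-fold lower in the cDC (log2 difference -1.29 ± 0.17, adjusted p = 5.9e-06). Its other population means lay below the array medians. Ccn1 thus passed the filter on signal through CD14hi moDC alone, and this call is not independent of the filter.

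Cdh1 encodes E-cadherin, the ligand of αEβ7, and had its highest signal in CD14lo cDC and its lowest in CD103+ cDC, where the receptor was chosen by the sort. It averaged 125 ± 23.8 for CD103+ cDC, 2470.3 ± 402 for CD14lo cDC, 349 ± 119 for CD14hi moDC and 998 ± 187 for Ly6Chi moDC. Cdh1 was 14.4-fold lower in CD103+ cDC than in CD14lo cDC (log2 difference -3.84 ± 0.22, adjusted p = 3.2e-10). Lung epithelium expresses Cdh1 as well. Of 13 epithelial markers, 12 were on the array, Cdh1 among them, and 10 passed the filter. They summed to 7306 to 12264 in CD103+ cDC and 4567 to 7722 in CD14lo cDC. In CD14hi moDC the sum was 3148 to 4385, and in Ly6Chi moDC 2904 to 4254. These sums hold the Cdh1 signal itself, so the overlap of the cDC ranges says nothing about the other markers. The part of epithelial cells in the Cdh1 signal was not tested. Tgfb1 averaged 1722 ± 350.3 for CD103+ cDC, 4150.3 ± 847 for CD14lo cDC, 3779 ± 481 for CD14hi moDC and 5703 ± 656 for Ly6Chi moDC and was 2.37-fold lower in CD103+ cDC than in CD14lo cDC (log2 difference -1.24 ± 0.17, adjusted p = 2.5e-05).

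In the machinery that links integrins to talin, kindlin and the cytoskeleton, 42 genes were listed, 38 were on the array and 34 were tested. Between the lineages 11 were higher and 5 lower in the cDC, with a median of -0.022, beside the 41.5% of all genes called; CD103+ cDC had 4 higher and 8 lower than CD14lo cDC, with a median of -0.044, beside 28.7%. Both shares of called genes lie near those of all genes. Those 12 calls were 9 under quantile normalization, which lost Rap1b, Stk4 and Parvb, and 9 under median centring, which lost Tln1, Rap1a and Rap1b, with no called gene turning its sign. Fyb, which encodes the adaptor ADAP, averaged 555 ± 43.4 for CD103+ cDC, 2544 ± 342 for CD14lo cDC, 4559 ± 563 for CD14hi moDC and 4531 ± 192 for Ly6Chi moDC and was 3.67-fold lower in the cDC (log2 difference -1.88 ± 0.10, adjusted p = 3.3e-11). The actin cross-linker gene Actn1 averaged 5127 ± 329 for CD103+ cDC, 3869.7 ± 456 for CD14lo cDC, 3322 ± 526 for CD14hi moDC and 512 ± 141 for Ly6Chi moDC, and was 3.31-fold higher in the cDC (log2 difference 1.73 ± 0.12, adjusted p = 1.3e-09). Most of this difference lay in the low Actn1 signal of Ly6Chi moDC, while CD14hi moDC stood near CD14lo cDC. Fyn, a Src family kinase gene, was 2.85-fold higher and the parvin gene Parvb 2.11-fold lower in the cDC (adjusted p = 1.9e-08 and 7.5e-08).

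Rasgrp2, the exchange factor that activates Rap1 and through it integrins, was 6.73-fold lower in CD103+ cDC than in CD14lo cDC (log2 difference -2.75 ± 0.25, adjusted p = 1.4e-07), with means of 14.0 ± 9.46 for CD103+ cDC, 388 ± 113 for CD14lo cDC, 64.5 ± 26.5 for CD14hi moDC and 288 ± 61.5 for Ly6Chi moDC. The kinase gene Fgr, which acts below β2 integrins in myeloid cells, was lower and Src higher in CD103+ cDC than in CD14lo cDC, with log2 differences of -2.10 and 1.85 (adjusted p = 2.6e-07 and 0.00012).

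Among membrane partners of integrins, 15 were listed, 14 were on the array and 13 tested, with 1 higher and 5 lower in the cDC (median -0.13; 41.5% of all genes called) and 5 higher and 2 lower in CD103+ cDC than in CD14lo cDC (median 0.23; 28.7% of all genes called). Plaur, the urokinase receptor, which associates with αMβ2, averaged 156 ± 63.3 for CD103+ cDC, 2992 ± 984 for CD14lo cDC, 3772 ± 837 for CD14hi moDC and 6189.8 ± 552 for Ly6Chi moDC. It was 14.9-fold lower in CD103+ cDC than in CD14lo cDC (log2 difference -3.89 ± 0.24, adjusted p = 8.4e-10), and 6.33-fold lower in the cDC as a whole (log2 difference -2.66 ± 0.17, adjusted p = 3.9e-10). Cd36, the scavenger receptor that works with αv integrins in the uptake of dying cells, averaged 7544 ± 665 for CD103+ cDC, 923 ± 223 for CD14lo cDC, 7408 ± 472 for CD14hi moDC and 990.1 ± 244 for Ly6Chi moDC. Its 2 bright populations were CD103+ cDC and CD14hi moDC, 1 of each lineage, and it was 7.93-fold higher in CD103+ cDC than in CD14lo cDC (log2 difference 2.99 ± 0.18, adjusted p = 5.4e-10). The tetraspanin gene Cd81 was bright in the same 2, averaging 15145 ± 2573 for CD103+ cDC, 3158 ± 981 for CD14lo cDC, 14376 ± 1031 for CD14hi moDC and 3799 ± 114 for Ly6Chi moDC, and was 4.86-fold higher in CD103+ cDC than in CD14lo cDC (log2 difference 2.28 ± 0.18, adjusted p = 2.5e-08). Of the other tetraspanins named by the same rule, Cd151 was 2.66-fold and Tspan32 2.05-fold lower, and Cd82 2.33-fold higher, in the cDC (adjusted p = 4.8e-08, 6.2e-05 and 6.3e-07).

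TGF-beta is activated by αv integrins and is known to induce αE in lymphocytes. Of 21 genes listed for its activation and signalling, 20 were on the array and 14 tested, with 1 higher and 8 lower in the cDC (median -0.48; 41.5% of all genes called) and 1 higher and 8 lower in CD103+ cDC than in CD14lo cDC (median -0.46; 28.7% of all genes called). Of the calls between the cDC, quantile normalization lost Ltbp3 and Smad7, and median centring Ltbp3 and Tgfbr1. Thbs1 and Tgfb1, given above, count in both this list and that of ligands. Tgfbr2, a TGF-beta receptor, averaged 801 ± 70.4 for CD103+ cDC, 1625 ± 96.1 for CD14lo cDC, 3509 ± 799 for CD14hi moDC and 2736 ± 14.0 for Ly6Chi moDC, and was 2.62-fold lower in the cDC (log2 difference -1.39 ± 0.11, adjusted p = 8.6e-09). Its partner Tgfbr1 was 2.23-fold lower and the signal transducer gene Smad3 2.41-fold lower in the cDC (adjusted p = 1.9e-08 and 3.4e-07). Nrros, which anchors latent TGF-beta on myeloid cells, averaged 2679.7 ± 582 for CD103+ cDC, 5356 ± 242 for CD14lo cDC, 4200.4 ± 265 for CD14hi moDC and 4546 ± 257 for Ly6Chi moDC, and was 2.01-fold lower in CD103+ cDC than in CD14lo cDC (log2 difference -1.01 ± 0.14, adjusted p = 2.9e-05).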

How the data were processed

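Expression was measured on Affymetrix mouse genome arrays from 50 ng of amplified, biotin-labelled RNA per sample. The authors deposited 1 linear intensity per probe set and array, made with MAS5 per the submitters' processing notes. As computed here, the deposited values of each array had a 2% trimmed mean of 500.003, and no scaling target was found. Neither a MAS5 version nor detection calls were found (not given in the sources used here); a filter on signal took the place of detection calls. Of 45101 probe sets, 64 controls were left out and a probe set was kept where it exceeded its array's median on at least 3 of 12 arrays, which left 25138. Genes were named from the platform annotation where it gives 1 symbol.

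A mean per population was fitted to log2(signal + 50.0) of 10929 genes in R 4.3.3 by limma 3.58.1, using lmFit and trended eBayes on 8 residual degrees of freedom, two-sided tests and Benjamini-Hochberg adjustment in each of 7 comparisons and for the F test. All adjusted p-values are from limma. The steps were tested on simulated data. Figures were drawn with matplotlib 3.10.9. Promoter sequences are RefSeq's (GRCm38.p6).

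The number of arrays, 3 per population, limits the precision. Replicates are biological pools of mice by the labels. Whether equal replicate numbers mark shared mice is not given. Same-numbered arrays deviated together at a median correlation of 0.056 over 18 pairs, with 8 above 0.1 (other pairs, median -0.019, 4 of 36 above 0.1). Since not every pair exceeded 0.1, the numbers were not used as pairs, but this does not settle whether mice were shared. The members and gene lists were chosen with earlier results of these data known. The text names all 10 members, each other integrin subunit that passed the filter, and from each list up to 4 called genes with the largest difference between the lineages and between the cDC. Alternatives were quantile normalization, median centring, 2 other pseudocounts, no filter and a stricter filter (percentile 75), probe sets averaged per gene, each probe set, only the arrays compared, no trend, the replicate number as a block and each array left out; leaving out CD103+ cDC replicates 1 and 3 was chosen after seeing the data.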

Additional observations from a re-analysis of the deposited data

How the results depend on the processing

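Of the log2 differences that were called with all arrays, 408 of 422 values under other processing settings kept their direction and their side of the threshold and 14 lost the call; 536 of 559 with arrays left out kept it and 23 lost it. Among other probe sets of a gene, 61 of 79 kept the call, 16 lost it and 2 turned sign. Of differences not called with all arrays, 12 of 268 gained a call under processing settings, 9 of 351 with arrays left out and 4 of 40 by other probe sets. The number of integrin genes called stayed within 1.5 times under each setting run, except between CD14hi moDC and Ly6Chi moDC under median centring, where it was 5 and not 3. Among all 10929 genes that setting called 832 higher and 1852 lower there, against 1248 and 745 without it. Median centring moved the median of all genes to -0.14 for CD103+ cDC minus Ly6Chi moDC, 0.11 for CD14lo cDC minus CD14hi moDC, -0.11 for CD14lo cDC minus Ly6Chi moDC and -0.21 for CD14hi moDC minus Ly6Chi moDC. With the replicate number as a block, 7 genes were called between the lineages (8 without it) and 2 between CD14hi moDC and Ly6Chi moDC (3 without it), which dropped Itgb2 (adjusted p = 0.060) and Itgam (0.052); no other count changed. Log2 differences that turned sign were not called with all arrays, apart from probe sets of Itgav in CD103+ cDC minus Ly6Chi moDC and Itgb1 in CD14hi moDC minus Ly6Chi moDC. Under quantile normalization these values became -0.039 for Itgb7 in CD103+ cDC minus CD14lo cDC, -0.020 for Itgb1 in CD103+ cDC minus CD14hi moDC, 0.039 for Itgax in CD14lo cDC minus CD14hi moDC, 0.043 for Itgb2 in CD14lo cDC minus CD14hi moDC and 0.064 for Itgav in CD14hi moDC minus Ly6Chi moDC. With probe sets averaged per gene these values became 0.10 for Itgal in CD103+ cDC minus Ly6Chi moDC, 0.11 for Itgal in CD14lo cDC minus Ly6Chi moDC and 0.10 for Itgav in CD14hi moDC minus Ly6Chi moDC. Under median centring these values became 0.033 for Itgax in CD14lo cDC minus CD14hi moDC, -0.0100 for Itgax in CD14lo cDC minus Ly6Chi moDC and -0.043 for Itgax in CD14hi moDC minus Ly6Chi moDC. Other probe sets of Itgal gave 0.012 in CD103+ cDC minus CD14lo cDC, 0.25 in CD103+ cDC minus Ly6Chi moDC and 0.24 in CD14lo cDC minus Ly6Chi moDC. Other probe sets of Itgb1 gave -0.022 in CD103+ cDC minus CD14lo cDC, -0.16 in CD103+ cDC minus CD14hi moDC, 0.42 in CD14lo cDC minus CD14hi moDC, 0.12 in CD14lo cDC minus CD14hi moDC and -0.12 in CD14hi moDC minus Ly6Chi moDC. Other probe sets of Itgav gave 0.14 in CD103+ cDC minus Ly6Chi moDC, 0.093 in CD14hi moDC minus Ly6Chi moDC and 0.61 in CD14hi moDC minus Ly6Chi moDC. With arrays left out, the log2 difference ran from -0.0019 to 0.17 for Itgb7 in CD103+ cDC minus CD14lo cDC, -0.16 to 0.094 for Itgal in CD103+ cDC minus CD14lo cDC, -0.053 to 0.15 for Itgb1 in CD103+ cDC minus CD14hi moDC, -0.17 to 0.052 for Itgal in CD103+ cDC minus Ly6Chi moDC, -0.14 to 0.088 for Itgal in CD14lo cDC minus Ly6Chi moDC, -0.11 to 0.0017 for Itgb2 in CD14hi moDC minus Ly6Chi moDC and -0.11 to 0.062 for Itgav in CD14hi moDC minus Ly6Chi moDC. The cause was not tested. Dim signals limit Itgae in moDC and Itgam in CD103+ cDC, which lay near the array median.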
